A study of Mus musculus with 9 samples.

Results

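Macrophages and other myeloid cells of the heart were followed through 34 genes that mark them, out of the 15779 genes in the deposited tables. The 34 genes were taken by symbol from a list chosen with earlier results of these data known. All 34 were present and passed the filter on low values in each comparison. Of these, 4 mark tissue-resident macrophages (Lyve1, Timd4, Folr2, Cd163) and 5 mark recruited or activated ones (Ccr2, Spp1, Trem2, Gpnmb, Lgals3). The other 25 were grouped as general myeloid genes. Some of them, such as Ptprc, are leukocyte genes and not specific to myeloid cells. The measured material was polyA RNA from pieces of flash-frozen adult C57BL/6J mouse heart, in 3 groups of 3 libraries (9 in all). Wild-type mice were given saline. Mice with the Mybpc3 R946X/R946X genotype, a premature stop codon in the gene of the sarcomere protein cardiac myosin-binding protein C, were also given saline. Mice of the same mutant genotype received high-dose exABE8e. The series describes ABE8e as an adenine base editor, an enzyme that turns A into G at a guided site, built on a Cas9 variant and delivered by the viral vector AAV9 for expression in cardiomyocytes. The labels give no age in weeks, no sex, no dose in numbers and no time after injection. No group given an empty vector was analysed here, so vector and editing cannot be told apart in the treated group.

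Resident macrophages settle in the heart early in life and clear dying cells and debris, while monocytes that enter from the blood through the receptor CCR2 join them after injury. Both kinds depend on the growth factor receptor CSF1R, take up antibody-coated and complement-coated material, and secrete the complement starter C1q. Activated macrophages of stressed or scarred tissue make osteopontin (Spp1), the lipid receptor TREM2, and galectin-3 (Lgals3).

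Library facts bear on what follows. Values were whole numbers on a scale on which each library summed to between 999152 and 999382, so depth is unknown and precision rests on 3 libraries per group. Nothing in the labels says how the replicates were obtained beyond their numbers, so p-values measure the spread between these libraries. Below, a heart means the tissue of 1 library. The 6 cardiomyocyte markers were high in every library, with summed values between 36558 and 46822. The sex-linked transcripts split the libraries. Xist, the RNA of the inactive X chromosome, stood at 119 in the first wild-type replicate, and the third saline mutant had 351; the Y-linked Ddx3y was at 0 in both. In treated replicate 1 Xist was 39 and Ddx3y 38 together, and in the other 6 libraries Xist was 0. Fits that leave out the libraries with Xist among those compared are given below for the members as a set and for some genes. A whole-tissue value cannot tell fewer myeloid cells from less RNA per cell.

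The reference promoters of 4 genes are shown: those of Mpeg1 and Spp1 because these were the members called between saline mutant and wild type, and those of Trem2 and C1qc as examples of members in which the letters searched below were found. They are from RefSeq on GRCm38.p6, each 250 bases upstream of the annotated start, 5′ to 3′ on the gene's strand. GAGGAAG was searched on both strands, as the core of the purine-rich element that the myeloid factor PU.1 (gene Spi1) binds, and matches are in capitals.
Spp1, chr5:104434861-104435110, plus strand: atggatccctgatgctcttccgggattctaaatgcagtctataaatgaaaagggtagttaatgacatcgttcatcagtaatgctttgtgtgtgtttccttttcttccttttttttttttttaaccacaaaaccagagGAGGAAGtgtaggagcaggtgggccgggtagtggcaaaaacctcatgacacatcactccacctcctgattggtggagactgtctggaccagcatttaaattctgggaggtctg
Trem2, chr17:48346151-48346400, plus strand: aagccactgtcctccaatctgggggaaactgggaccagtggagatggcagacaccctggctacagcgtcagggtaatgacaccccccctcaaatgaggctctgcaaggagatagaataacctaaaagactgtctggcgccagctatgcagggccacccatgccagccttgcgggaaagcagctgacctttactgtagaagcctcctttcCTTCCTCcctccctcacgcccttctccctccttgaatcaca
C1qc, chr4:136892915-136893164, minus strand: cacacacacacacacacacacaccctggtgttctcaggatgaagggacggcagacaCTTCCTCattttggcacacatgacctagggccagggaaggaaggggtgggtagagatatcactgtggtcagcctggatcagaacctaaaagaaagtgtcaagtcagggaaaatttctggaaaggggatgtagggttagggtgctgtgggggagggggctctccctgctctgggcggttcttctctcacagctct
Mpeg1, chr19:12460520-12460769, plus strand: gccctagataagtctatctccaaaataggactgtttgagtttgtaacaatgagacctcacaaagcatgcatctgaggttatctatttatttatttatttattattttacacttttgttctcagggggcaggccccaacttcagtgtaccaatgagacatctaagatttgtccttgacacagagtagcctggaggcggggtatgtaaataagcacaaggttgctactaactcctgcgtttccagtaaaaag
The Spp1 match starts 113 bases before this start, on the gene's own strand. A second annotated Spp1 start, with the window chr5:104435942-104436191, has no match. The Trem2 and C1qc matches lie on the opposite strand, at 41 and 194 bases before the start. Mpeg1, Ctss and C1qb hold no match in their windows, and C1qa has no window in the table. Of the 34 genes, 27 had a promoter in the RefSeq table, and 9 of the 27 (33.3%) held GAGGAAG: Spp1, Trem2, Mrc1, F13a1, C1qc, Fcgr1, Fcgr3, Itgam and Laptm5. Among all 27025 genes with a promoter of this length, 12% held it. The longer GAGGAAGT, which contains the shorter one, was in Spp1 and C1qc, 2 of 27 (7.41%), against 2.79% of all genes. These matches describe letters in the reference and are not evidence of binding.

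In saline-treated mutant hearts the myeloid genes lay mostly above wild type, but only 2 of the 34 passed the test. Mpeg1, which encodes the pore-forming protein perforin-2 of macrophage phagosomes, rose. Spp1, which encodes the secreted matrix protein osteopontin, passed too, but it entered the test only through its mutant values, so its call adds no support to the count. The 2 genes are 5.88% of the members, beside 7.71% of all 13632 genes tested (4.56% higher, 3.15% lower), so the share called was near the background. The test was limma on log2(value + 1) with Benjamini-Hochberg adjustment over all genes tested. At an unadjusted p under 0.05, 11 members were higher and 0 lower, where 12.1% of all genes were higher and 7.76% lower. The fitted log2 fold change was above 0 for 29 members and below 0 for 3, with a median of 0.44, where 58.5% of all genes lay above 0 with a median of 0.07. In 4 members (Spp1, Trem2, Ctss, Mpeg1) the mutant values lay above all wild-type values, beside 12.8% of all genes that were higher without overlap and 21.6% without overlap in either direction. These counts describe genes that share cells and libraries, and they are not independent of each other. The genes were also chosen with earlier results of these data known. Spp1 is included in each of these counts and adds no support to them.

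**Figure D1:**
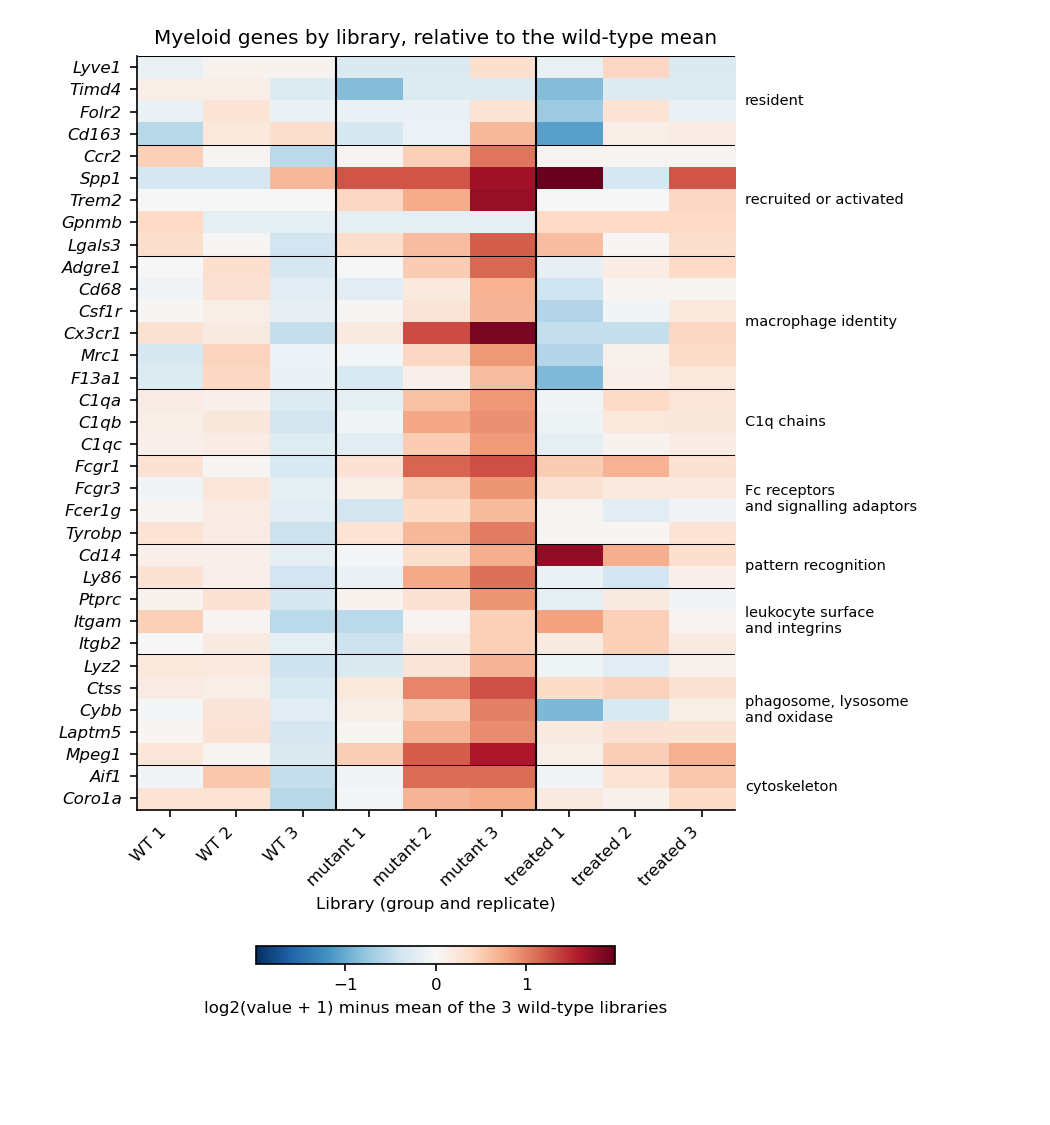
Each row is 1 of the 34 genes, grouped by role, and each column 1 library; colour gives log2(value + 1) minus the mean of the 3 wild-type libraries (red higher, blue lower). Saline mutant replicate 3 was alone the highest of its group in 31 of 34 genes and replicate 1 alone the lowest in 30 (57.9% and 46.5% of all genes), while the rows of Lyve1, Timd4 and Folr2 stayed pale or blue in most mutant libraries.

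Mpeg1 (chr19:12460779-12465283 on GRCm38) had values of 25, 22 and 17 in wild-type replicates 1 to 3, 30, 50 and 66 in the saline mutants, and 23, 30 and 35 in the treated mutants. All 3 saline mutants lay above all 3 wild types, and replicate 1 was the lowest of the mutants. The log2 fold change between saline mutant and wild type was 1.10 (SE 0.265, limma adjusted p = 0.0396), a 2.14-fold difference. Without saline mutant replicate 1 it was 1.40 (adjusted p = 0.00351). Leaving out any other single library kept the direction but ended the call: the adjusted p was 0.141 and 0.11 without mutant replicates 2 and 3, and 0.096, 0.0684 and 0.128 without wild-type replicates 1, 2 and 3. Without the libraries with Xist, here wild-type replicate 1 and saline mutant replicate 3, the fold change was 0.97 (adjusted p = 0.108).

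Spp1 (chr5:104435118-104441050) was near the bottom of the scale: 0, 0 and 1 in wild type, 2, 2 and 3 in the saline mutants, and 4, 0 and 2 in the treated mutants. The saline mutants did not overlap wild type, but the whole difference spans a few units of rounding, and Spp1 passed the filter only through the mutant group. The log2 fold change was 1.39 (SE 0.312, adjusted p = 0.0306). It was called without mutant replicate 1 (adjusted p = 0.0488) and without wild-type replicate 3 (0.0104). It was not called without mutant replicate 2 or 3 (0.0903 and 0.12) or wild-type replicate 1 or 2 (0.131 and 0.0837). Without the libraries with Xist the fold change was 1.08 (adjusted p = 0.26). The treated hearts spanned the range of both saline groups.

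The other recruited or activated genes were also low. Trem2, a receptor for lipids and cell debris, was 2 in each wild-type heart, 3, 4 and 9 in the saline mutants, and 2, 2 and 3 in the treated mutants. The saline mutants lay above all wild types, with replicate 3 far above the other two, and the log2 fold change of 0.96 (SE 0.315) had an adjusted p of 0.12. Without that replicate it was 0.58 (adjusted p = 0.196). Lgals3, which encodes the sugar-binding galectin-3, was 4, 3 and 2 in wild type, 4, 5 and 8 in the saline mutants, and 5, 3 and 4 in the treated mutants. Its groups met at 4, and the fold change was 0.72 (SE 0.271, adjusted p = 0.174). Ccr2, the receptor by which monocytes leave the marrow and enter tissue, was 3, 2 and 1 in wild type, 2, 3 and 5 in the saline mutants, and 2 in each treated heart. The saline groups overlapped (0.53, SE 0.326, adjusted p = 0.428). Gpnmb, a glycoprotein of lipid-laden macrophages, did not share this direction: it was 2, 1 and 1 in wild type, 1 in each saline mutant and 2 in each treated mutant. Its fold change between saline mutant and wild type was -0.19 (SE 0.232, adjusted p = 0.708). Of the 5 genes, Spp1 alone was called, with the limit given above, and the median, which includes Spp1, was 0.72.

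None of the resident genes passed the test in either direction. Lyve1, a hyaluronan receptor, was 22, 26 and 26 in wild type, 20, 20 and 31 in the saline mutants, and 22, 33 and 20 in the treated mutants. The groups overlapped throughout, with a log2 fold change of -0.08 (SE 0.181, adjusted p = 0.86) between the saline groups. Timd4, a receptor for dying cells, was 3, 3 and 2 in wild type, 1, 2 and 2 in the saline mutants and 1, 2 and 2 in the treated mutants. Its fold change was -0.47 (SE 0.238, adjusted p = 0.322), and the groups met at 2. Folr2, a folate receptor, was 2, 3 and 2, then 2, 2 and 3, then 1, 3 and 2 in the same order, and its fold change was 0.00 (SE 0.216). Cd163, the receptor that clears haemoglobin bound to haptoglobin, was 22, 38 and 42 in wild type, 26, 30 and 52 in the saline mutants, and 15, 36 and 37 in the treated mutants. Wild-type and mutant values of Cd163 spread over the same range (0.07, SE 0.295, adjusted p = 0.958). At an unadjusted p under 0.05 none of the 4 differed, and the median of their fold changes was -0.04. This median turned with the libraries left out: 3 of the 4 were above 0 without saline mutant replicate 1 or 2 (median 0.04 each), and all 4 were below 0 without replicate 3 (median -0.25) or wild-type replicate 1 (median -0.19). It was 0.05 without wild-type replicate 2 and -0.06 without replicate 3, and 0 were called in each case. Without the libraries with Xist, here wild-type replicate 1 and saline mutant replicate 3, the median was -0.43. In this fit 2 of the 4, Lyve1 and Cd163, were lower at an unadjusted p under 0.05 but not called. Of all 13675 genes in it, 2219 passed that level in either direction, and 40.9% lay above 0. Whether the resident genes differ in response from the recruited ones was not tested. Lyve1 is also made by lymphatic vessels, whose other markers (5 of 6 in the tables, none at 0) summed to 102 to 127 in wild type, 92 to 109 in the saline mutants and 86 to 118 in the treated mutants. Their part in the Lyve1 level was not tested.

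The C1q chains start the classical complement pathway and are made by macrophages in most tissues. Their genes lie side by side on chr4 (C1qb 136880129-136886187, C1qc 136889804-136893065, C1qa 136895917-136898803). C1qa was 75, 72 and 55 in wild type, 59, 100 and 122 in the saline mutants, and 64, 87 and 79 in the treated mutants. C1qb was 72, 77 and 51, then 63, 112 and 124, then 61, 76 and 77. C1qc was 73, 75 and 57, then 58, 97 and 123, then 59, 71 and 75. In each chain saline mutant replicates 2 and 3 stood above every other library and replicate 1 lay inside the wild-type range, so the groups overlapped. The fold changes were 0.42 (SE 0.247, adjusted p = 0.402) for C1qa, 0.54 (SE 0.255, adjusted p = 0.29) for C1qb and 0.38 (SE 0.248, adjusted p = 0.455) for C1qc. All 3 were called without mutant replicate 1, where 7.56% of all genes were called. None was called without any other single library (adjusted p of 0.251 to 0.849). The chains kept close to each other: C1qb over C1qa lay between 0.874 and 1.12 in the 9 libraries, and C1qc over C1qa between 0.816 and 1.04.

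**Figure D2:**
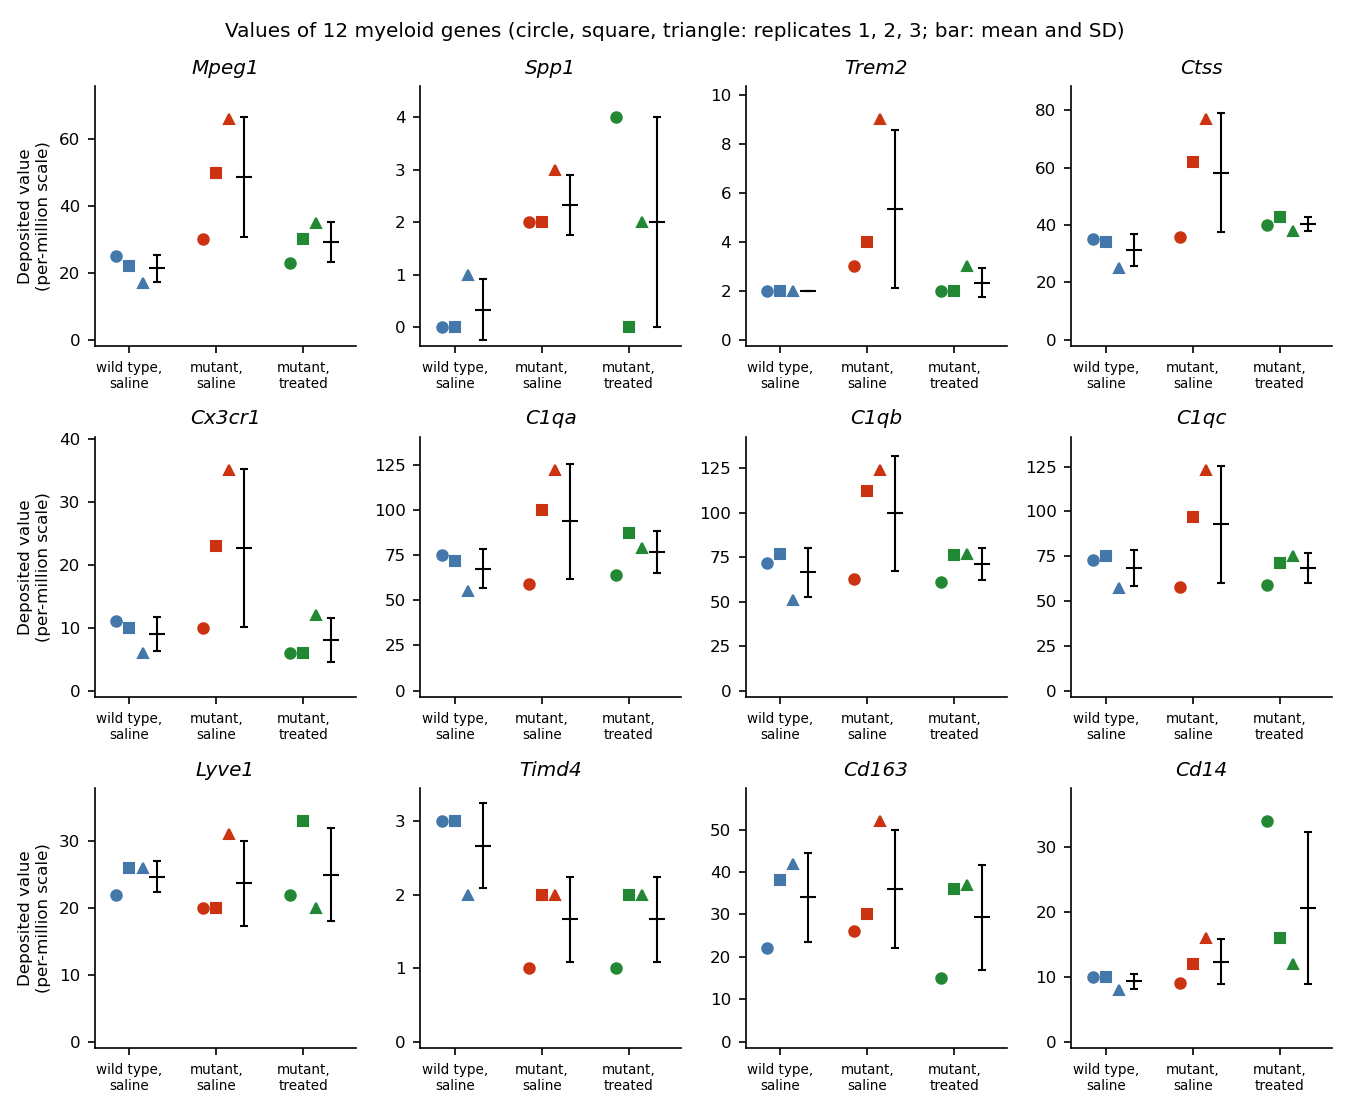
Deposited values (per-million scale, vertical axis from 0 or just below) of 12 genes in wild-type saline, mutant saline and mutant treated hearts; circles, squares and triangles are replicates 1, 2 and 3, and bars give the mean and SD of 3 libraries. Mpeg1, Spp1, Trem2 and Ctss have saline mutants above all wild types, the C1q chains have saline mutant replicate 1 inside the wild-type range, and Cd14 is highest in treated replicate 1, at 34.

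Among the genes of the phagosome, lysosome and oxidase, Ctss, the lysosomal protease cathepsin S (chr3:95526786-95556403), was 35, 34 and 25 in wild type, 36, 62 and 77 in the saline mutants, and 40, 43 and 38 in the treated mutants. Saline mutants lay above wild types without overlap, by 1 unit for replicate 1. The fold change was 0.82 (SE 0.259, adjusted p = 0.105), and 0.59 (adjusted p = 0.276) without mutant replicate 3. Laptm5, Cybb (the catalytic subunit of the phagocyte NADPH oxidase) and Lyz2 (lysozyme) had fold changes of 0.55, 0.53 and 0.22, and none was called. Lyz2 has a near-identical copy, Lyz1, and how reads shared between copies were assigned is not given in the sources used here, so its level is uncertain, as is that of Fcgr3, which has related neighbours.

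The 4 Fc receptor and adaptor genes were all above 0, at 0.91 for Fcgr1 (SE 0.282, adjusted p = 0.102), 0.65 for Tyrobp, 0.50 for Fcgr3 and 0.21 for Fcer1g. Fcgr1 encodes the high-affinity antibody receptor, and Tyrobp and Fcer1g the signalling adaptors that TREM2 and the Fc receptors use. Of the 6 identity genes, all 6 were above 0 and none was called, with 1 higher at an unadjusted p under 0.05. Cx3cr1, the fractalkine receptor, was 11, 10 and 6 in wild type, 10, 23 and 35 in the saline mutants, and 6, 6 and 12 in the treated mutants. Saline mutant replicate 1 lay inside the wild-type range, and the fold change of 1.12 (SE 0.397) had an adjusted p of 0.15. Csf1r, the growth factor receptor that macrophages need to survive, was 72, 78 and 63 in wild type, 72, 85 and 113 in the saline mutants, and 47, 68 and 82 in the treated mutants, with overlap of all 3 groups (0.32, SE 0.167, adjusted p = 0.342). Adgre1 (the F4/80 antigen), Mrc1 (the mannose receptor), Cd68 and F13a1 had fold changes of 0.55, 0.42, 0.22 and 0.14, and none passed. The remaining 7 genes, Cd14, Ly86, Ptprc, Itgam, Itgb2, Aif1 and Coro1a, lay between 0.00 (Itgam) and 0.72 (Aif1), and none passed.

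**Figure D3:**
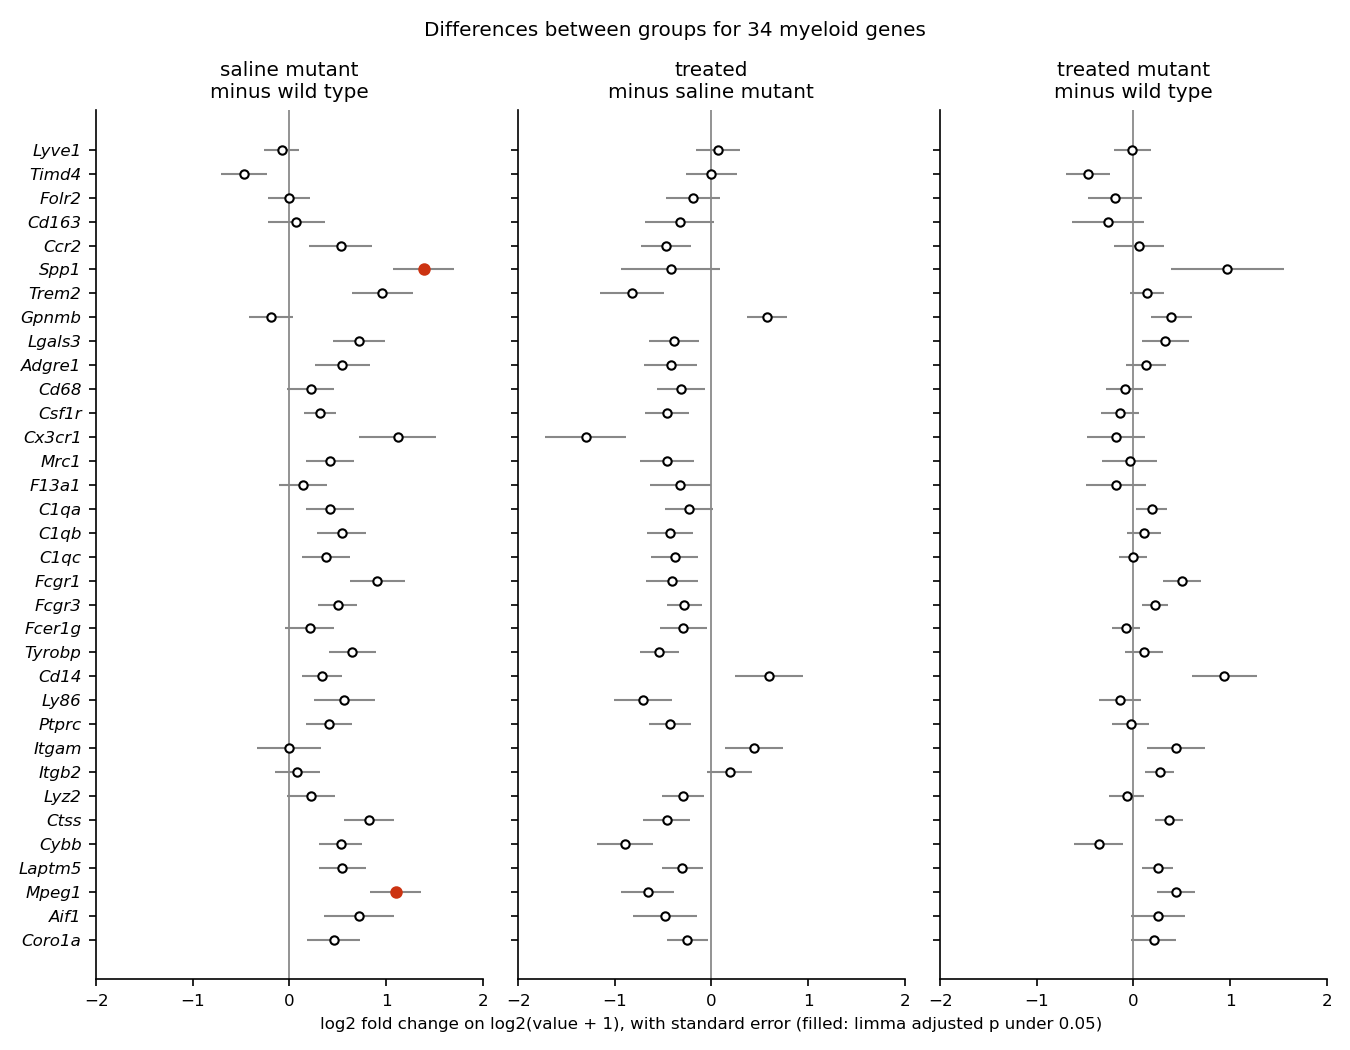
Log2 fold change with its standard error for the 34 genes in the 3 comparisons (horizontal axis), on log2(value + 1); filled points have a limma adjusted p under 0.05. Mpeg1 and Spp1 are filled in the comparison of saline mutant with wild type, and no point is filled in the other 2 panels.

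The difference between mutant and wild type was carried by 2 of the 3 mutant libraries. Of the 34 genes, 4 in saline mutant replicate 1, 22 in replicate 2 and 30 in replicate 3 lay above all 3 wild-type hearts, where 18.2%, 26.8% and 50% of all genes did. Without mutant replicate 1, 10 members were called, all higher (29.4%, beside 7.56% of all genes): Spp1, Trem2, Cx3cr1, C1qa, C1qb, C1qc, Fcgr1, Ctss, Laptm5 and Mpeg1. Here too Spp1 entered the test only through its mutant values and adds no support to the count. Without replicate 2, 0 were called, beside 3.87% of all genes, and 6 were higher at an unadjusted p under 0.05 (median 0.42). In that fit 2047 of all 13655 genes passed this level in either direction, and the median gene was at 0.08. Without replicate 3, 0 were called, beside 5.22% of all genes, and 5 were higher at that level (median 0.23, 23 above 0 and 10 below). Of all 13599 genes there, 2283 passed it in either direction, and 47% lay above 0 with a median of 0.00. Replicate 3 is the mutant library with Xist, and its general level was raised too: the median gene stood 0.21 above the wild-type mean there on the log2 scale, against 0.87 for the 34 genes. In saline mutant replicate 2, which had no Xist, the medians were 0.03 and 0.49. Without the libraries with Xist, wild-type replicate 1 and saline mutant replicate 3, 0 members were called, beside 4.24% of all genes. Of the members 25 lay above 0 with a median of 0.27, where 40.9% of all genes lay above 0 with a median of 0.00. Among the wild types, replicate 3 was alone the lowest in 26 of the 34 genes, beside 29.5% of all genes. The member count was 0 without wild-type replicate 1, 0 without replicate 2 and 1 (Spp1) without replicate 3, beside 4.59%, 5.65% and 4.69% of all genes.

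Fibroblast markers shared part of this order. Within the saline mutants all 8 were highest in replicate 3, beside 57.9% of all genes. Within wild type all 8 were lowest in replicate 3, beside 29.5% of all genes. In saline mutant replicate 1 their median was 0.25 over the wild-type mean, above the 3 wild-type hearts (0.13, 0.09 and -0.33), where the myeloid median of -0.03 was not. Their summed values were 3232 to 4350 in wild type, 3893 to 5641 in the saline mutants and 3751 to 4240 in the treated mutants, none was at 0, and the median fold change between the saline groups was 0.55. Col1a1, the main fibrillar collagen chain, was called higher (0.93, SE 0.189, adjusted p = 0.0193), but not without saline mutant replicate 2 or 3 (adjusted p = 0.0686 and 0.0713) or wild-type replicate 1 (0.0816). It was 196, 247 and 148 in wild type, 320, 360 and 435 in the saline mutants, and 261, 218 and 305 in the treated mutants. Periostin (Postn) was at 1.44 (adjusted p = 0.0751). At an unadjusted p under 0.05, 5 of the 8 were higher and 1 lower, where 12.1% of all genes were higher and 7.76% lower. The lower one was Gsn (gelsolin, an actin-severing protein), at 2301, 1861 and 1741 in wild type and 1527, 1498 and 1613 in the saline mutants, without overlap (-0.34, SE 0.129, adjusted p = 0.18). The part of these cells, and of tissue sampling, in the myeloid values was not tested.

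**Figure D4:**
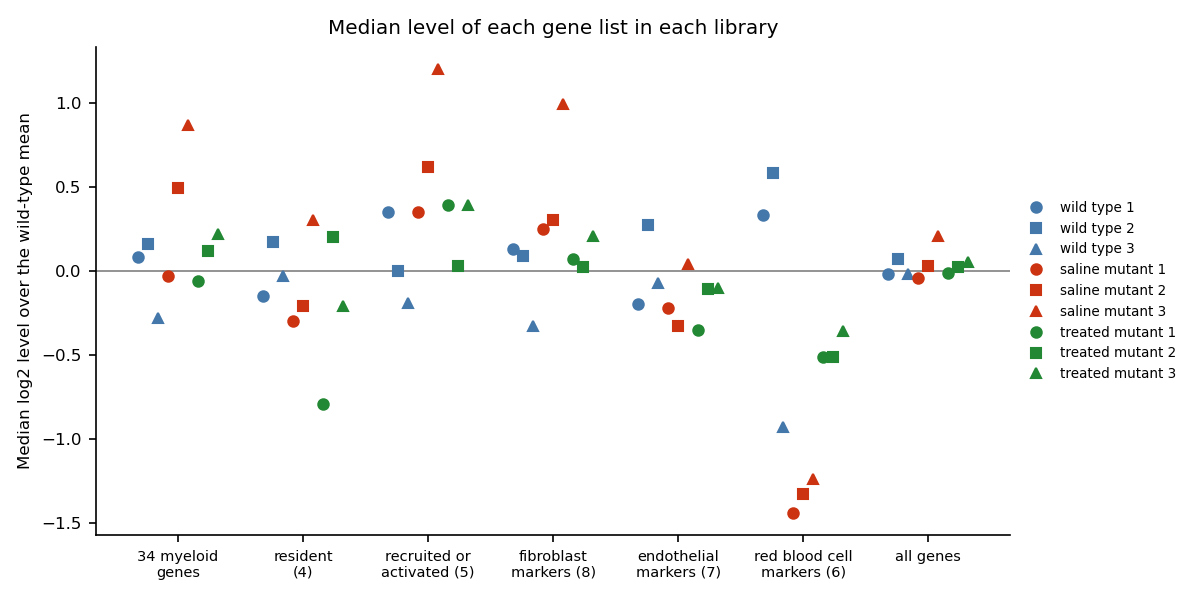
Median log2 level of each gene list over the wild-type mean (vertical axis) in each of the 9 libraries (colour: group; symbol: replicate). For the 34 myeloid genes saline mutant replicates 2 and 3 stand at 0.49 and 0.87 and replicate 1 at -0.03; fibroblast markers are likewise highest in saline mutant replicate 3, and red blood cell markers are lowest in the saline mutants.

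Markers of neutrophils and of T and NK cells were scarce. In the neutrophil list 3 of 8 genes were in the tables and summed to at most 4 in any library, and T and NK cell genes (7 of 10) to at most 5. The B cell genes summed to 8 to 27 per library, the dendritic cell genes to 26 to 38 and the mast cell genes to 8 to 18. Most of each sum came from 1 gene: Ighm (8 to 24), Zbtb46 (19 to 29) and Kit (5 to 16). Clec9a was 4 to 7, and the other genes of these 3 lists were at most 2 in any library, so these sums say little about the cells. Ly6g, Mpo, Cd3e and Ms4a1 were not analysed here. Across the neutrophil, T and NK cell, B cell, dendritic cell and mast cell lists none of the 9 genes tested between saline mutant and wild type was called, and 1 (Kit) was lower at an unadjusted p under 0.05. Their largest fold changes were 0.39 for Csf3r, 0.53 for Cd4, -0.33 and 0.29 for Cd79b and Ighm, 0.19 for Xcr1, and -0.62 and -0.19 for Kit and Mcpt4. Red blood cell genes were lower in the saline mutants: all 5 tested had no overlap, beside 21.6% of all genes without overlap in either direction. Alas2 (-1.35, adjusted p = 0.0359) and Hba-a2 (-1.15, adjusted p = 0.0411) were called, 40% of the 5, beside 3.15% of all genes called lower. Summed values were 104 to 315 in wild type, 69 to 86 in the saline mutants and 141 to 159 in the treated mutants. Alas2 was no longer called without any one of the libraries except wild-type replicate 3 (adjusted p of 0.0617 to 0.159), and Hba-a2 without mutant replicate 2 or 3 or wild-type replicate 1 or 2 (0.0959 to 0.175). Hbb-bs and Hbb-bt were at -1.41 each and did not pass. Endothelial markers had a median of -0.17, with Vwf at 0.44 and Kdr at -0.35, and none of 7 was called or passed an unadjusted p of 0.05. Among the lymphatic markers Reln was at -0.32 and Mmrn1 and Prox1 at 0.28 and -0.28, and none of 5 was called or passed that level. Of the 6 cardiomyocyte markers none was called, with 3 lower and 1 higher at an unadjusted p under 0.05, Tnni3 at -0.50 and Pln at -0.41. Of all genes, 7.71% were called, and 7.76% were lower and 12.1% higher at that level.

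Treatment of mutant mice gave no called change in any of the 34 genes relative to saline mutants, against 0.0293% of all 13636 genes tested, which is 4 genes. At an unadjusted p under 0.05, 6 members were lower and 1 higher, where 4.76% of all genes were lower and 3.53% higher. The fold change was below 0 for 28 and above 0 for 5, with a median of -0.38. Of all genes 39.8% lay above 0, with a median of -0.02. This comparison uses the same saline mutant libraries as the one with wild type, so the 2 sets of values are not independent. The largest differences were in Cx3cr1 at -1.30 (SE 0.419, adjusted p = 0.456), Cybb at -0.89 (SE 0.29, adjusted p = 0.459) and Trem2 at -0.82 (SE 0.331, adjusted p = 0.567). Cybb was 17, 21 and 15 in wild type, 19, 25 and 36 in the saline mutants and 9, 14 and 19 in the treated mutants, and its treated and saline mutant values met at 19. Ly86 was at -0.71, Mpeg1 at -0.66 (SE 0.272, adjusted p = 0.572) and Tyrobp at -0.54, and none passed. Treated and saline mutant values overlapped in every member but Gpnmb, which was 2 in each treated heart and 1 in each saline mutant (0.58, SE 0.207, adjusted p = 0.497), a difference of 1 rounding unit. Of all genes, 5.48% were higher without overlap. Without saline mutant replicate 3 the median of the 34 was -0.13 with 0 called. Without the libraries with Xist, here saline mutant replicate 3 and treated replicate 1, it was -0.08 with 0 called, 21 members below 0 and 13 above.

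The C1q chains differed by -0.23, -0.43 and -0.38 between treated and saline mutants (C1qa, C1qb, C1qc), and none passed the unadjusted level. The resident genes Lyve1, Timd4, Folr2 and Cd163 differed by 0.07, 0.00, -0.19 and -0.33. Of the recruited genes, Ccr2 was at -0.47, Spp1 at -0.42 and Lgals3 at -0.39. The standard errors, 0.184 to 0.511 over the 34 genes, were as large as many of these differences.

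Against wild type, the treated mutants had 0 of 34 genes called, beside 0.989% of all 13554 genes tested (0.863% higher, 0.125% lower). At an unadjusted p under 0.05, 3 members were higher and 0 lower, where 7.74% of all genes were higher and 4.78% lower. The fold change was above 0 for 19 members and below 0 for 14, with a median of 0.11. Of all genes 50.6% lay above 0, with a median of 0.01. Spp1, at 0.97, passed the filter here only through its treated values and adds no support to these counts. The groups did not overlap for 2 genes, both higher in the treated hearts, beside 9.13% of all genes that were higher without overlap and 14.6% without overlap in either direction. These were Ctss (0.37, SE 0.146, adjusted p = 0.357) and Cd14. Cd14, the co-receptor for bacterial lipopolysaccharide, was 10, 10 and 8 in wild type, 9, 12 and 16 in the saline mutants, and 34, 16 and 12 in the treated mutants. Treated replicate 1, the library with both Xist and Ddx3y, was highest. The fold change of Cd14 over wild type was 0.94 (SE 0.335, adjusted p = 0.302) and 0.53 (adjusted p = 0.409) without that library. The third gene at the unadjusted level was Fcgr1 (0.50, SE 0.196, adjusted p = 0.355). Mpeg1 was at 0.44 (SE 0.193, adjusted p = 0.409), where the saline mutants had been at 1.10. With 3 libraries per group these data do not show that the treated hearts match wild type.

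Genes around the macrophage were examined by list. Of 6 tested inflammatory mediators 1 was called, which is 16.7% beside 7.71% of all genes. This was Tlr4, the lipopolysaccharide receptor that works with CD14. It was 13, 18 and 14 in wild type, 40, 29 and 45 in the saline mutants, and 35, 40 and 30 in the treated mutants. Every mutant heart, treated or not, lay above every wild-type heart, and the 2 mutant groups overlapped. Its log2 fold change was 1.28 (SE 0.187, adjusted p = 0.00421) for saline mutant and 1.17 (SE 0.16, adjusted p = 0.0268) for treated mutant over wild type, and 1.14 (adjusted p = 0.0172) for saline mutant without replicate 3. The first held under 18 of 18 alternatives and the second under 10 of 18, the second being lost without treated replicate 1 (adjusted p = 0.0746) or 2 (0.0826). Nos2 was at -0.55 and did not pass, Il1b was at most 1, and Tnf, Il6, Il10, Arg1 and Chil3 were not analysed here.

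Of 10 tested complement genes beyond C1q, 1 rose and 1 fell in the saline mutants, beside 4.56% of all genes called higher and 3.15% lower. C3, the central complement protein, was 59, 63 and 60 in wild type, 38, 32 and 40 in the saline mutants, and 87, 104 and 46 in the treated mutants. The saline mutants lay below all other hearts, with a fold change of -0.72 (SE 0.115, adjusted p = 0.00687) against wild type. The treated hearts lay above them without overlap, by 1.01 (SE 0.268, adjusted p = 0.351), which was not called. C4b, which C1q activation cleaves, was 10, 9 and 8, then 12, 21 and 26, then 26, 55 and 13, and rose in the saline mutants (0.99, SE 0.251, adjusted p = 0.0488). Its call held without saline mutant replicate 1 and was lost without any other single library (adjusted p of 0.0937 to 0.176).

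Of 10 tested chemokines 1 was called, which is 10% beside 7.71% of all genes. Cx3cl1, the ligand of the Cx3cr1 receptor, was 8, 8 and 5 in wild type, 13, 11 and 15 in the saline mutants, and 13, 11 and 11 in the treated mutants. All mutant hearts lay above all wild types, with a fold change of 0.82 (SE 0.201, adjusted p = 0.0422) for the saline mutants and 0.68 (SE 0.187, adjusted p = 0.189) for the treated ones. The call was lost without any single library (adjusted p of 0.0539 to 0.131). Cxcl10 was at 1.06 and did not pass, and Ccl2, the ligand of CCR2, was at most 3 in any library. Of 12 tested phagocytosis and scavenger receptor genes 1 was called, which is 8.33% beside 7.71% of all genes. This was Syk, the kinase downstream of TYROBP and FCER1G, which was higher in the saline mutants. It was 31, 39 and 41 in wild type, 55, 51 and 53 in the saline mutants, and 49, 52 and 53 in the treated mutants, with a fold change of 0.52 (SE 0.127, adjusted p = 0.0429), which was also lost without any single library (adjusted p of 0.0625 to 0.132). Both mutant groups lay above wild type. Fcgr4 was at 1.04 and Siglec1 at 0.63, and neither passed.

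**Figure D5:**
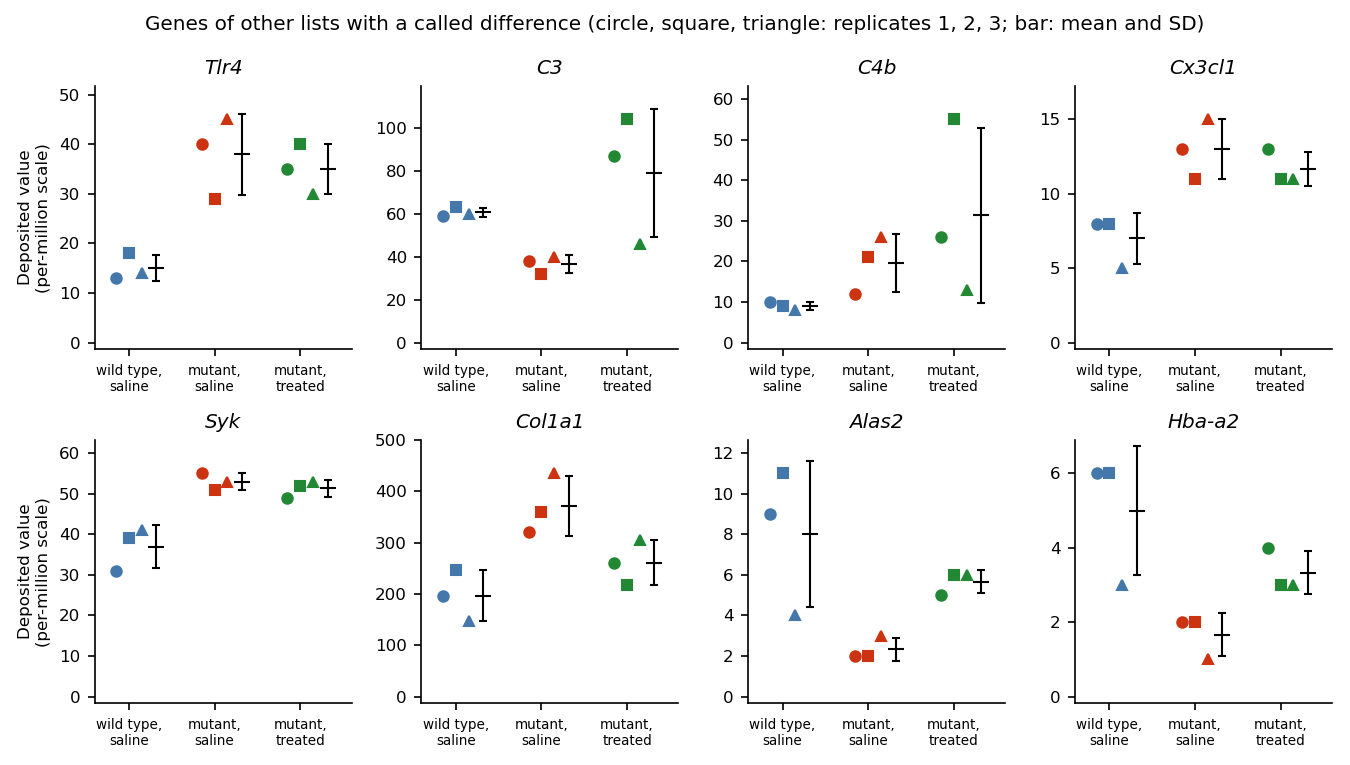
Deposited values (per-million scale, vertical axis from 0 or just below) of the genes of other lists that were called in a comparison, in the 3 groups; symbols are replicates 1 to 3 and bars the mean and SD. Tlr4, Cx3cl1 and Syk are above wild type in all 6 mutant hearts, treated or not, while C3 is lowest in the 3 saline mutants and Col1a1 is highest in them.

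The other lists held no called gene in the limma fit of saline mutant and wild type, where 7.71% of all genes were called. At an unadjusted p under 0.05, 12.1% of all genes were higher and 7.76% lower. Myeloid growth factors and their receptors had 1 of 5 tested genes higher at an unadjusted p under 0.05, with Csf2ra at 0.72 and Csf2rb at 0.33. Of 9 myeloid transcription factors 4 were higher at that level, with Irf8 at 0.64 and Irf5 at 0.48. Spi1, which encodes PU.1, was 8, 7 and 6 in wild type, 5, 10 and 13 in the saline mutants and 6, 8 and 7 in the treated mutants, with overlap (0.29, adjusted p = 0.657). Of 13 lysosomal genes 5 were higher at that level, led by Ctsz at 0.66. Of 8 genes of lipid-associated macrophages 1 was, with Cd63 at 0.45 and Apoe at 0.36. None of these lists fell at that level. Between treated and saline mutants no gene of any list named here was called, beside 0.0293% of all genes.

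In the authors' deposited table of selected genes, 3 of the 34 members (8.82%) were listed for saline mutant against wild type, beside 4.42% of the genes in the authors' deposited table of that comparison. Per the authors' deposited table their log2 fold changes were 1.23 for Cx3cr1, 0.81 for Ctss and 1.10 for Mpeg1. For treated against saline mutant the authors' deposited table of selected genes held Cx3cr1, at -1.43, and for treated mutant against wild type it held Cd14, at 1.14. Each is 1 of 34 members (2.94%), beside 0.879% and 2.06% of the genes in the authors' deposited tables of those comparisons. The column named as an adjusted p-value in the authors' deposited tables equalled the unadjusted normal p-value of the statistic, so these lists are not adjusted for the number of genes.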

How the data were processed

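Poly(A) RNA of mouse heart was sequenced in 9 libraries. The submitters' processing notes name HISAT2, HTSeq, DESeq2 and mm10, without roles or versions. The authors deposited a value per gene and library as whole numbers. These were treated as a score, since the libraries summed to nearly the same total and no label or header names the unit. They look like a rounded per-million scale, perhaps corrected for transcript length. The authors also deposited a mean signal, log2 fold changes with standard errors, a test score and p-value columns, used only where named. A gene was tested when its 6 values in a comparison averaged 1 or more. Each comparison was fitted separately with limma 3.58.1 under R 4.3.3, after taking log2(value + 1), which shrinks differences of low genes. Residual variances were held at or above the rounding variance (1/12 on the value scale), prior degrees of freedom came from genes with a mean of at least 30, and genes were called at a Benjamini-Hochberg adjusted p under 0.05. Where an arm is left with fewer libraries, the spread is pooled over both groups. The procedure was also run on simulated data with noise drawn separately for each gene. That noise holds no shift shared by a whole library, so the run does not vouch for the calls here. The members and lists were chosen with earlier results of these data known. Named in full were the resident, recruited and C1q genes, every member called and every member without overlap between the saline groups or between treated and saline mutants; Cx3cr1, Csf1r, Cybb, Cd14, Fcgr1, Ccl2, Gsn and Spi1 were added after their values were seen. From each other list every called gene and the 2 largest differences between the saline groups were named, apart from some genes that are not reported here. Alternatives covered scaling, filter, pseudocount, variance step, replicate block, sex-linked level and each library left out. Gene positions are from GENCODE M21 (GRCm38), promoters from RefSeq (GRCm38.p6).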

Additional observations from a re-analysis of the deposited data

How the results depend on the processing

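Depth is unknown, and values of a few units, as for Spp1, Trem2, Gpnmb, Timd4, Folr2 and Ccr2, are set partly by rounding. Called members in saline mutant against wild type numbered 2 (Spp1, Mpeg1), and 1 with all 9 libraries fitted, with a mean of at least 10, with a pseudocount of 0.1 or with the Y-linked level as a covariate. The count was 4 with median-of-ratios factors, 0 with limma's own variance step, 0 without the libraries with Xist, and 0 to 10 over the single libraries left out. Called genes in that comparison numbered 1051 (622 higher), 580 without the libraries with Xist and 528 to 1037 with 1 library left out. They numbered 1285 with median-of-ratios factors and 858 with limma's own variance step. With all 9 libraries fitted there were 1080, with a mean of at least 10 825, with a pseudocount of 0.1 1040 and with the covariate 984. The member counts were not set apart from these by any test. With upper-quartile factors 1294 genes were called, 624 of them higher, and the median gene moved from 0.07 to -0.02.
For treated against saline mutant, 4 genes were called, 13 with all 9 libraries, 14 with prior degrees of freedom from all genes, 10 with either scaling, 9 and 7 with pseudocounts of 0.1 and 10, 32 with limma's own variance step, 2 without a filter, without the libraries with Xist or with the covariate, and 2 to 8 with 1 library left out. limma's own variance step called 1 member (Gpnmb). For treated mutant against wild type 134 genes were called, 239 with all 9 libraries, 243 with the prior from all genes, 9 without the libraries with Xist, 87 with a pseudocount of 10, 77 with limma's own variance step, 29 with the covariate and 1 to 139 with 1 library left out. The members' median of 0.11 ranged from -0.07 (without wild-type replicate 3) to 0.19 with 1 library left out.
Replicate numbers did not pair saline mutant and wild-type libraries, with same-number correlations of -0.229, -0.104 and -0.37. For treated and saline mutant they were -0.0696, 0.197 and 0.12, and for treated and wild type 0.566, 0.15 and 0.0274. Unlike numbers ran from -0.256 to 0.0669 and from -0.387 to 0.342 in these comparisons, so pairing was not settled there. The value of 0.566 was between the first replicates of wild type and treated, both with Xist. With the replicate block 824, 35 and 35 genes and 2, 1 (Cybb) and 0 members were called.
Of 1796 fold changes of members under alternatives, 1706 kept direction and call, 12 passed only there, 16 no longer passed and 62 changed sign, none of them called. With 1 library left out, the lowest and highest log2 fold changes of those that changed sign were, for saline mutant against wild type, Lyve1 -0.29 to 0.02, Cd163 -0.22 to 0.26, Cd68 -0.02 to 0.44, F13a1 -0.10 to 0.36, Itgb2 -0.11 to 0.32 and Lyz2 -0.01 to 0.46. For treated against saline mutant they were Lyve1 -0.14 to 0.28, Folr2 -0.43 to 0.07, Cd163 -0.54 to 0.08, Spp1 -0.93 to 0.23, F13a1 -0.54 to 0.02 and Itgb2 -0.05 to 0.39, and for treated mutant against wild type Lyve1 -0.22 to 0.13, Folr2 -0.43 to 0.07, Cd163 -0.54 to 0.15, Ccr2 -0.21 to 0.29, Adgre1 -0.04 to 0.30, Cd68 -0.20 to 0.06, Csf1r -0.32 to 0.08, Mrc1 -0.25 to 0.23, F13a1 -0.38 to 0.16, C1qb -0.07 to 0.22, Tyrobp -0.10 to 0.25, Ly86 -0.33 to 0.01, Ptprc -0.20 to 0.12, Lyz2 -0.28 to 0.04 and Coro1a -0.07 to 0.35. Without the libraries with Xist, the values that changed sign were Cd163 -0.50, Cd68 -0.06, F13a1 -0.23 and Itgb2 -0.11 for saline mutant against wild type, Folr2 0.21, Cd163 0.37, Adgre1 0.02, Cd68 0.08, Mrc1 0.04, F13a1 0.26 and C1qa 0.11 for treated against saline mutant, and Cd68 0.02, Csf1r 0.09, Cx3cr1 0.12, Mrc1 0.08, F13a1 0.02, Ptprc 0.09 and Lyz2 0.04 for treated mutant against wild type. Cd163 was -0.02 between the saline groups with upper-quartile factors, and Lyz2 0.01 between treated mutant and wild type with the covariate. The causes were not tested.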

Other observations

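The levels of 7 members were taken relative to Csf1r; all pairs were chosen after the values were seen, and none was tested. The ratio of Mpeg1 to Csf1r separated wild-type from mutant libraries. It was 0.347, 0.282 and 0.27 in wild-type replicates 1 to 3, 0.417, 0.588 and 0.584 in the saline mutants, and 0.489, 0.441 and 0.427 in the treated mutants. All 6 mutant hearts lay above all 3 wild types, saline mutant replicate 1 included, and the 2 mutant groups overlapped. Cx3cr1 relative to Csf1r, computed in the same way, was 0.139 in saline mutant replicate 1, 0.271 and 0.31 in replicates 2 and 3, and between 0.0882 and 0.153 in the wild-type and treated hearts. Lyve1 relative to Csf1r was 0.278, 0.235 and 0.274 in the saline mutants and between 0.306 and 0.413 in wild type, without overlap, while the treated hearts ranged from 0.244 to 0.485. Cd163 and Lyz2 did not separate wild type from saline mutant in this way: Cd163 relative to Csf1r ranged from 0.306 to 0.667 in wild type and from 0.353 to 0.46 in the saline mutants, and Lyz2 relative to Csf1r from 2.43 to 3.28 and from 2.32 to 2.88. Cd14 relative to Csf1r lay between 0.125 and 0.142 in the 6 saline hearts and was 0.723, 0.235 and 0.146 in the treated hearts. Ctss relative to Csf1r was 0.486, 0.436 and 0.397 in wild type, 0.5, 0.729 and 0.681 in the saline mutants, and 0.851, 0.632 and 0.463 in the treated hearts. The saline mutants lay above wild type without overlap, narrowly for replicate 1, and the treated hearts overlapped both groups.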
